A study of Mus musculus with 16 samples.

Results

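Open chromatin was examined at 8 genes through which thymocytes receive or dampen cytokine signals, the receptor genes *Il7r*, *Il2rb*, *Il4ra*, *Il6ra* and *Il6st* and the suppressor genes *Socs1*, *Socs2* and *Socs3*. Every ATAC-seq peak that lay whole within the body of one of these genes, or within 30 kb on either side of it, was counted as a member (mm10, GENCODE M21). These were 577 of the 476734 peaks in the 4 lists of the series, with 153 from the DN list (of 150139), 131 from the DP list (of 107110), 147 from the SP4 list (of 115074) and 146 from the SP8 list (of 104411). Overlapping peaks of different stages (by 1 bp or more) were joined into a region, which gave 209 regions at the 8 genes out of 185978 in all. The rule uses the position of a peak and none of its values, but the genes were chosen with earlier results of these data known.

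The thymocytes came from 4 wild type C57BL/6J mice, all 9 weeks old, and were sorted by flow cytometry into double negative (DN, without CD4 and CD8), double positive (DP, with both), CD4 single positive (SP4) and CD8 single positive (SP8) cells. None of the groups carried an engineered allele or received a treatment. ATAC-seq marks open chromatin as the places where the transposase Tn5 can insert its adapters, and it was carried out on 16 libraries, 4 for each stage. The reads of the 4 mice of a stage were pooled before peaks were called, so the data are 1 list for each stage, with no spread between mice and no test between stages. The differences below therefore describe these 4 lists, and the depth behind each peak is not in them.

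Each peak carries a fold enrichment at its summit, the signal there over the local background, and a q-value. Since the lists differ in length and in their range of fold enrichment, the height of a region at a stage is given as its percentile among all peaks of that stage's list, where 100 is the highest, and "not called" means that the list holds no peak there. A region that was not called may still hold signal under the threshold. The start sites of all 10 thymocyte marker genes (such as *Cd3e*, *Lck* and *Rag1*) were called at every stage. Of 5 natural killer, 5 B cell and 4 stromal markers, 1 each was called at every stage (*Klrd1*, *Ebf1* and *Epcam*), and of 4 erythroid markers none. Among 6 myeloid markers *Itgam* was called at every stage, while *Csf3r* and *Lyz2* were called in the DN list alone. The DN list held the most peaks in the windows of each of these non-thymocyte lists. For the myeloid genes there were 85 DN peaks against 50 to 58 of the other stages, and for the B cell genes 77 against 37 to 53. The stromal genes had 79 against 53 to 58, the erythroid genes 38 against 21 to 23 and the natural killer genes 48 against 34 to 46. The thymocyte genes too had the most peaks in the DN list, 224 against 180 to 187. The DN list was the longest, with 150139 peaks against 104411 to 115074. Of the 18439 protein-coding genes with a peak, 81% had fewer DP than DN peaks. All 4 sorts left out cells stained for myeloid (Mac1, Gr1, CD11c), B cell, erythroid, natural killer and gamma delta T cell antigens, and the part of any such cells in the DN values below was not tested.

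Cytokine receptors of this group carry no kinase of their own. Ligand binding brings JAK kinases together on the receptor tails, which then phosphorylate STAT proteins, and STAT proteins in turn switch on *Socs* genes, whose products block the receptors or the kinases. In the thymus the interleukin-7 receptor keeps early DN cells and mature single positive cells alive, and its alpha chain, encoded by *Il7r*, is known to be low on DP cells in between. *Il2rb* encodes the beta chain shared by the receptors for interleukin-2 and interleukin-15, *Il4ra* the alpha chain for interleukin-4 and interleukin-13, *Il6ra* the ligand-binding chain for interleukin-6, and *Il6st* the signalling chain gp130 that the interleukin-6 family shares.

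Sequences are shown for the regions whose height differed most between stages, the leading 3 of *Il7r* and the leading 1 of each other gene. Each covers the highest summit of the region and the 100 bp on either side of it on the mm10 plus strand, and none of these windows touches an annotated UTR. Capitals mark literal matches, on either strand, to any of 18 short motifs. The motifs were STAT (TTCNNNGAA), ETS (AGGAAGT), ETS with CpG (CCGGAAG), RUNX (TGTGGT), TCF7/LEF1 (CTTTGA), the GATA family (AGATAA), FOXO (TGTTTAC), glucocorticoid receptor (ACANNNTGT), the E-boxes CAGCTG and CAGGTG, NF-kB (GGGNNTTTC), IRF (GAAANNGAA), AP-1 (TGANTCA), EGR (GCGGGGGCG), IKAROS (TGGGAA), CTCF (AGNGGGC), NFAT (TGGAAA) and BCL6 (TTCCTAGAA). The BCL6 letters are also a match to the STAT motif, and capitals of neighbouring matches can run together.

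The first 3 windows lie upstream of *Il7r* at chr15:9535314-9535514, chr15:9533421-9533621 and chr15:9549179-9549379, between genes. They are shown because these regions were called at SP4 and SP8 and not at DP.
Il7r -5.58 kb: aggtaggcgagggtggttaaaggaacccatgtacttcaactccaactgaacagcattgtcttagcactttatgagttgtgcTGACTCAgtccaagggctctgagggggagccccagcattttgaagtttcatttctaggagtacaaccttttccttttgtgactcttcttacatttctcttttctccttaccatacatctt
Il7r -3.69 kb: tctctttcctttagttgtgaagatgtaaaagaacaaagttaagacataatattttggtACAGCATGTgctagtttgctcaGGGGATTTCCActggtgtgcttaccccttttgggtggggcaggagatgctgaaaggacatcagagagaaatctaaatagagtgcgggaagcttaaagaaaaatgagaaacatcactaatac
Il7r -19.44 kb: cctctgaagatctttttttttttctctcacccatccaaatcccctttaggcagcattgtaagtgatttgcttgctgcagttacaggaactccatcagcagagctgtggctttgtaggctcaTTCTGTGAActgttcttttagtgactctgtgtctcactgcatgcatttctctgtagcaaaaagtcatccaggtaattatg
The window at -5.58 kb held 1 AP-1 match, a motif found in 7.21% of all 185978 regions in windows of the same length. At -3.69 kb a glucocorticoid receptor match (ACAGCATGT, in 7.52% of all regions) lay 42 bp before the summit on the plus strand, next to an NF-kB match (GGGGATTTC, 2.86%) that overlapped an NFAT match (13.2%). At -19.44 kb 1 STAT match (TTCTGTGAA, 5.44% of all regions) was found. These are matches of letters and not measured binding.

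The leading regions of *Il2rb*, *Il4ra*, *Il6ra* and *Il6st* gave the next 4 windows, at chr15:78502902-78503102, chr7:125556946-125557146, chr3:89887025-89887225 and chr13:112447221-112447421. The *Il4ra* window is intronic, the *Il6ra* window overlaps an annotated *Il6ra* exon outside the UTR, and the others lie between genes. They are shown because the first and last were called at SP4 and SP8 alone, while the *Il4ra* region stood highest at DP and the *Il6ra* region at DN.
Il2rb -7.73 kb: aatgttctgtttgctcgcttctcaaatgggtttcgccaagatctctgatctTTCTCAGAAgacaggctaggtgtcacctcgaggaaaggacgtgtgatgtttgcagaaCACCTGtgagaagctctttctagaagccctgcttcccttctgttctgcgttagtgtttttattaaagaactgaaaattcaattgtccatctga
Il4ra +4.93 kb: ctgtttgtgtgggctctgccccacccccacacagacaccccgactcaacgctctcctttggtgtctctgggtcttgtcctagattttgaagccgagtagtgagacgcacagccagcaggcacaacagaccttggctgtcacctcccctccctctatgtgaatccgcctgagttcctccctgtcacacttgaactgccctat
Il6ra +26.07 kb: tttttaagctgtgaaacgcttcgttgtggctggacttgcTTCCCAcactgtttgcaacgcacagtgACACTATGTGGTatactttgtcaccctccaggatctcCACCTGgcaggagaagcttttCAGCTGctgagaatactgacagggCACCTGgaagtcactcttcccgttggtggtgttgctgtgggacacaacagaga
Il6st -16.75 kb: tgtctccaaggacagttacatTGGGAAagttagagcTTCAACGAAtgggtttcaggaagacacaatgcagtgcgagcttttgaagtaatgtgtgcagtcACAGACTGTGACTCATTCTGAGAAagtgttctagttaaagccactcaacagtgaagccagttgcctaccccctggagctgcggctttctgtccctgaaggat
At *Il6st* -16.75 kb a glucocorticoid receptor match (ACAGACTGT), an AP-1 match (TGACTCA) and a STAT match (TTCTGAGAA) lay at the summit, the first overlapping the AP-1 match in its last base and the STAT match directly following it, and a second STAT match (TTCAACGAA) lay 64 bp before it. The *Il2rb* window held a STAT match (TTCTCAGAA) and a CAGGTG E-box (23.3% of all regions). In the *Il6ra* window 6 matches were found, of which 2 were the CAGGTG E-box, and the *Il4ra* window held none of the 18 motifs.

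The leading regions of the *Socs* genes lay at chr16:10761323-10761523 and chr11:117947193-117947393, both downstream of the gene and between genes, and at chr10:95398684-95398884, in an intron of *Socs2*. They are shown because each was absent from at least 1 of the SP lists.
Socs1 +24.11 kb: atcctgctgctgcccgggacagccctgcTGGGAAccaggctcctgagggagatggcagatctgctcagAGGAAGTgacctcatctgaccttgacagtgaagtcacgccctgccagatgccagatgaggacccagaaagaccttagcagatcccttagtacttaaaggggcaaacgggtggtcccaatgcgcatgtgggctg
Socs2 +18.07 kb: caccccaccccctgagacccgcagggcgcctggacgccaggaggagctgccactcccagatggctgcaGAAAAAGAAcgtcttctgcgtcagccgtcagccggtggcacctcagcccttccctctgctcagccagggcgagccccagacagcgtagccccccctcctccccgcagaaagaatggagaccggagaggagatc
Socs3 +21.89 kb: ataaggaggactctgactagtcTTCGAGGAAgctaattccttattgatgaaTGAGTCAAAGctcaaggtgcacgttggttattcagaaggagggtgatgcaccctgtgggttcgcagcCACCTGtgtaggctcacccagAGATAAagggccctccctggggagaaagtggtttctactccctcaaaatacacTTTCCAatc
The *Socs3* window held 6 matches, among them a STAT match (TTCGAGGAA) and an AP-1 match (TGAGTCA) that ran on into a TCF7/LEF1 match. An ETS match and an IKAROS match were found in the *Socs1* window, and 1 IRF match (GAAAAAGAA, 6.19% of all regions) in the *Socs2* window. Over all 10 windows the STAT motif was matched in 4, and over the 209 regions at the 8 genes in 17, or 8.13%, against 5.44% of all regions. Other motifs also differed, with AP-1 in 10.5% (against 7.21%) and the CAGCTG E-box in 23.0% (against 18.3%). Some were less frequent than over all regions, such as TCF7/LEF1 in 12.4% (against 16.0%). None of these differences was tested.

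*Il7r*, on the minus strand of chromosome 15 (chr15:9505788-9530176, ENSMUSG00000003882.5), had the largest log2 ratios of SP4 and SP8 over DP peaks among the 8 genes. Its window of 84.4 kb, which holds no other protein-coding gene, contained 14 regions. These held 4 DN and 3 DP peaks against 12 SP4 and 9 SP8 peaks, and the 3 DP peaks lay in 2 regions. The log2 ratio of peaks (with 1 added to each count) was 1.70 for SP4 over DP and 1.32 for SP8 over DP, and 0.466% and 0.917% of the 18439 protein-coding genes with a peak had ratios at least as large. Against DN the log2 ratios were 1.38 for SP4 and 1.0 for SP8, reached by 0.157% and 0.813% of genes. *Il7r* thus stood at the far end of the distribution in all 4 comparisons, which share lists with each other.

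Of the 14 *Il7r* regions, 10 were called at SP4 or SP8 and at neither DN nor DP, against 15.4% of all regions. Only 2 regions, the start site and an intronic region 1.45 kb downstream of it, were called at all 4 stages, and DP had no region beyond these. At -5.58 kb (chr15:9535131-9535536, between genes) the percentile was 44.6 at DN, 85.6 at SP4 and 74.0 at SP8, with no DP call. At -3.69 kb (chr15:9533341-9533803), the only region besides the start site that lay within 5 kb upstream, it was 48.3 at SP4 and 66.0 at SP8, with no call at DN or DP. The region at -19.44 kb (chr15:9549197-9549367) reached 57.1 at SP4 and 39.6 at SP8 and was likewise absent from the DN and DP lists. The upstream regions at -5.58 and -19.44 kb were thus higher at SP4 than at SP8, while the region at -3.69 kb was higher at SP8.

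**Figure D1:**
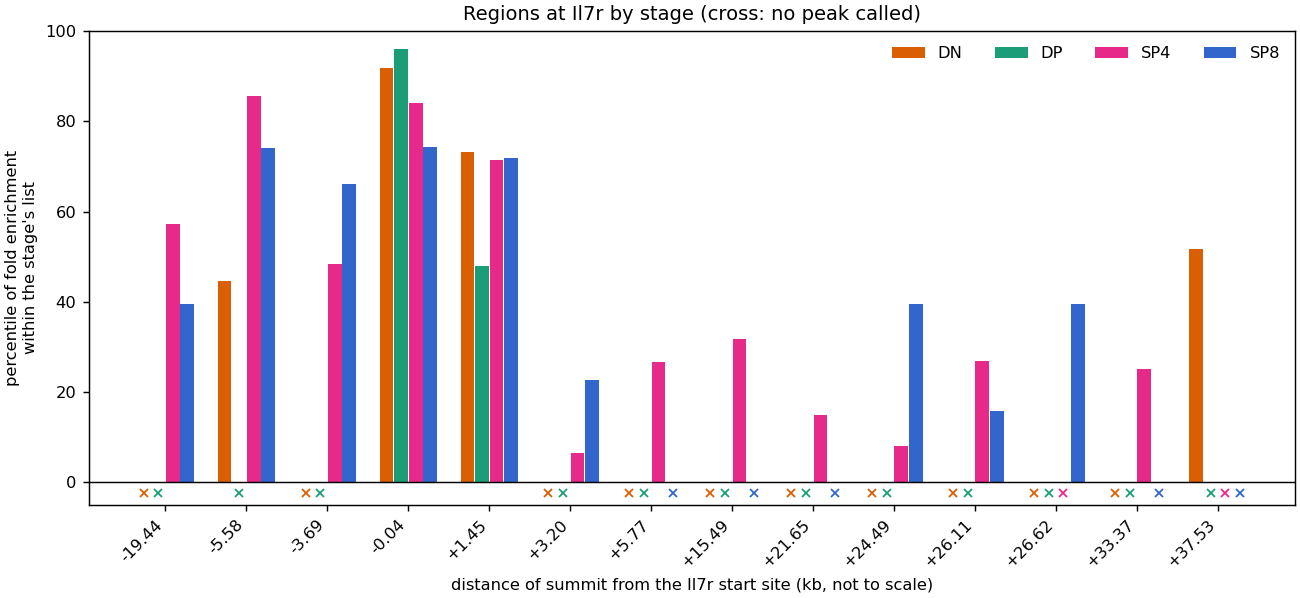
Percentile of fold enrichment within each stage's list for the 14 regions at *Il7r*, ordered by the distance of the summit from the start site in kb, with a cross where no peak was called. DP bars stand at the start site (-0.04 kb) and at +1.45 kb alone, whereas SP4 bars stand at 12 of the 14 regions.

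The *Il7r* start site itself (chr15:9529624-9530014) was open throughout. Its percentile was 91.9 in DN, 96.2 in DP, 84.1 in SP4 and 74.3 in SP8 by fold enrichment, so it stood highest at DP. Ranked by q-value the same region stood at 90.0, 87.6, 90.0 and 84.2, so the order of the stages depended on the measure. In the intron, at +1.45 kb (chr15:9527998-9528849), the percentile was 73.3 in DN, 47.9 in DP, 71.3 in SP4 and 71.9 in SP8, and DP was lowest by q-value too, at 41.9. The other 8 regions downstream of the start site called at SP4 or SP8 stood at a percentile of 39.6 or lower, and a region at +37.53 kb was called at DN alone, at 51.7.

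Upstream of the RefSeq start site of *Il7r* lie the 150 bases at chr15:9529877-9530026 (GRCm38.p6, minus strand), which are shown because this promoter was called at every stage.
Il7r promoter: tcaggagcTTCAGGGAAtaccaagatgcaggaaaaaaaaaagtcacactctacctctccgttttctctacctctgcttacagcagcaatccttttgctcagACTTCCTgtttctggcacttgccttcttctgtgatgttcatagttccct
It held an ETS match (ACTTCCT on this strand, 49 to 43 bp before the start) and a STAT match (TTCAGGGAA, 142 to 134 bp before it). The merged start-site region ended within the letters of the STAT match, so this match lay partly outside the called region. The scan around the summit of that region found an ETS and a RUNX match and no STAT match. Among 32851 RefSeq promoters, 7.69% held the ETS letters and 7.02% the STAT letters in the 250 bp before the start. RefSeq promoters were at hand for 6 of the 8 genes (not *Il2rb* and *Socs2*). The *Il7r* promoter was the poorest of the 6 in CpG, with an observed to expected ratio of 0.0844 against 0.576 to 0.959 in the other 5 and a median of 0.373 over all promoters.

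Genes with a stage pattern like that of *Il7r* were sought by the share of each stage in the summed log2 fold enrichment of the peaks in a window, which for *Il7r* was 16.3% in DN, 11.8% in DP, 39.5% in SP4 and 32.4% in SP8. Among 16211 genes with at least 10 peaks, the nearest were *Ccny* (distance 0.020), *Inpp4b* (0.023) and *Gm11099* (0.028), where the distance is the summed excess of shares and its median over all genes was 0.243. *Inpp4b* had 30 DN and 27 DP peaks against 95 SP4 and 73 SP8 peaks within its window, and *Ccny* 6, 4, 13 and 13.

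*Il2rb* (ENSMUSG00000068227.9, chr15:78479256-78495271, minus strand) had 24 regions with 15 DN, 12 DP, 14 SP4 and 17 SP8 peaks, and 8 regions (33.3%, against 34.1% of all regions) were called throughout. Its start site (chr15:78494808-78495529) was high and even, at 89.5, 90.5, 91.2 and 93.9 in the order DN, DP, SP4 and SP8. A second region 1.52 kb downstream, over the start of another *Il2rb* transcript, was not called at DN and stood at 2.3 at DP, 40.9 at SP4 and 42.4 at SP8. At -7.73 kb (chr15:78502859-78503073) a region was called at SP4, at 74.6, and at SP8, at 31.0, with a neighbour at -7.41 kb called at SP4 alone, at 57.9. The reverse order was seen over an exon at +14.21 kb, at 73.1 at DN and 64.8 at DP with no call at SP4 or SP8. The region highest at every stage, at 98.1 to 99.8, lay at +32.17 kb within an intron of the neighbouring gene *Tmprss6*.

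At *Il4ra* (ENSMUSG00000030748.9, chr7:125552120-125579474, plus strand) 37 regions held 30 DN, 30 DP, 25 SP4 and 25 SP8 peaks, and 17 regions (45.9%) were called throughout. The log2 ratio of SP4 over DP peaks was -0.25, and 19.9% of genes lay at or below it. Only 1 region (2.70%, 95% Wilson interval for counting error 0.479 to 13.8) was called at SP4 or SP8 without DN or DP, against 15.4% of all regions, whereas the 10 called at DN or DP without either (27.0%, interval 15.4 to 43.0) were near the 32.5% of all regions. An intronic region at +4.93 kb (chr7:125556720-125557399) stood at 28.2 in DN, 86.0 in DP, 9.8 in SP4 and 2.4 in SP8, and by q-value DP was again far above the others, at 99.3 against 58.4, 50.3 and 33.4. A region at +32.03 kb followed the same order of DP, DN and the SP stages, with 80.3 at DP, 62.6 at DN, 9.7 at SP4 and 10.5 at SP8. At the start site (chr7:125552096-125552387) DP was lowest instead, at 26.9 against 61.5 at DN, 59.5 at SP4 and 67.9 at SP8, and so it was at +9.33 kb in an intron, at 44.9 against 79.0, 81.0 and 81.5. The regions of this gene did not share a stage pattern.

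*Il6ra* (ENSMUSG00000027947.11, chr3:89864059-89913196, minus strand) had 24 DN, 15 DP, 22 SP4 and 22 SP8 peaks within 28 regions. DP was lowest in number, and fewer DP than DN peaks were also found at 81% of all genes. At all 4 stages 11 regions were called (39.3%, against 34.1% of all regions). Its start site (chr3:89912499-89913538) stood at 83.6, 84.1, 74.7 and 78.8 in stage order. At +26.07 kb (chr3:89886856-89887387) the percentile was 85.6 at DN and 25.0 at DP, with no call at SP4 or SP8. At +22.84 kb, over another exon, it was 4.3 in DN, 50.5 in DP, 72.0 in SP4 and 46.4 in SP8. Regions with high calls at every stage were found at +40.81 kb, at 85.1 to 94.4, and at +48.83 kb, at 78.8 to 90.7.

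*Il6st* (ENSMUSG00000021756.12, chr13:112464070-112510086, plus strand) had 19 DN, 19 DP, 25 SP4 and 28 SP8 peaks in 37 regions. The log2 ratio of SP8 over DN was 0.54, at or above which lay 1.95% of genes. Of its regions 14 were called at SP4 or SP8 and at neither DN nor DP (37.8%, Wilson interval 24.1 to 53.9, against 15.4% of all regions), the largest number among the 8 genes. The region at -16.75 kb (chr13:112447225-112447447) was called at SP4, at 82.8, and at SP8, at 40.2. Over the start of a further *Il6st* transcript, at +8.47 kb, a region was not called at DN, stood at 15.5 at DP and was higher at SP4, at 78.0, and SP8, at 62.3. An intronic region at +28.02 kb stood at 44.6, 71.0, 99.1 and 84.3 in stage order. The opposite order was seen at -24.42 kb, at 93.2, 77.8, 47.2 and 36.2, while the start site (chr13:112463661-112464616) stayed between 83.9 and 94.1.

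**Figure D2:**
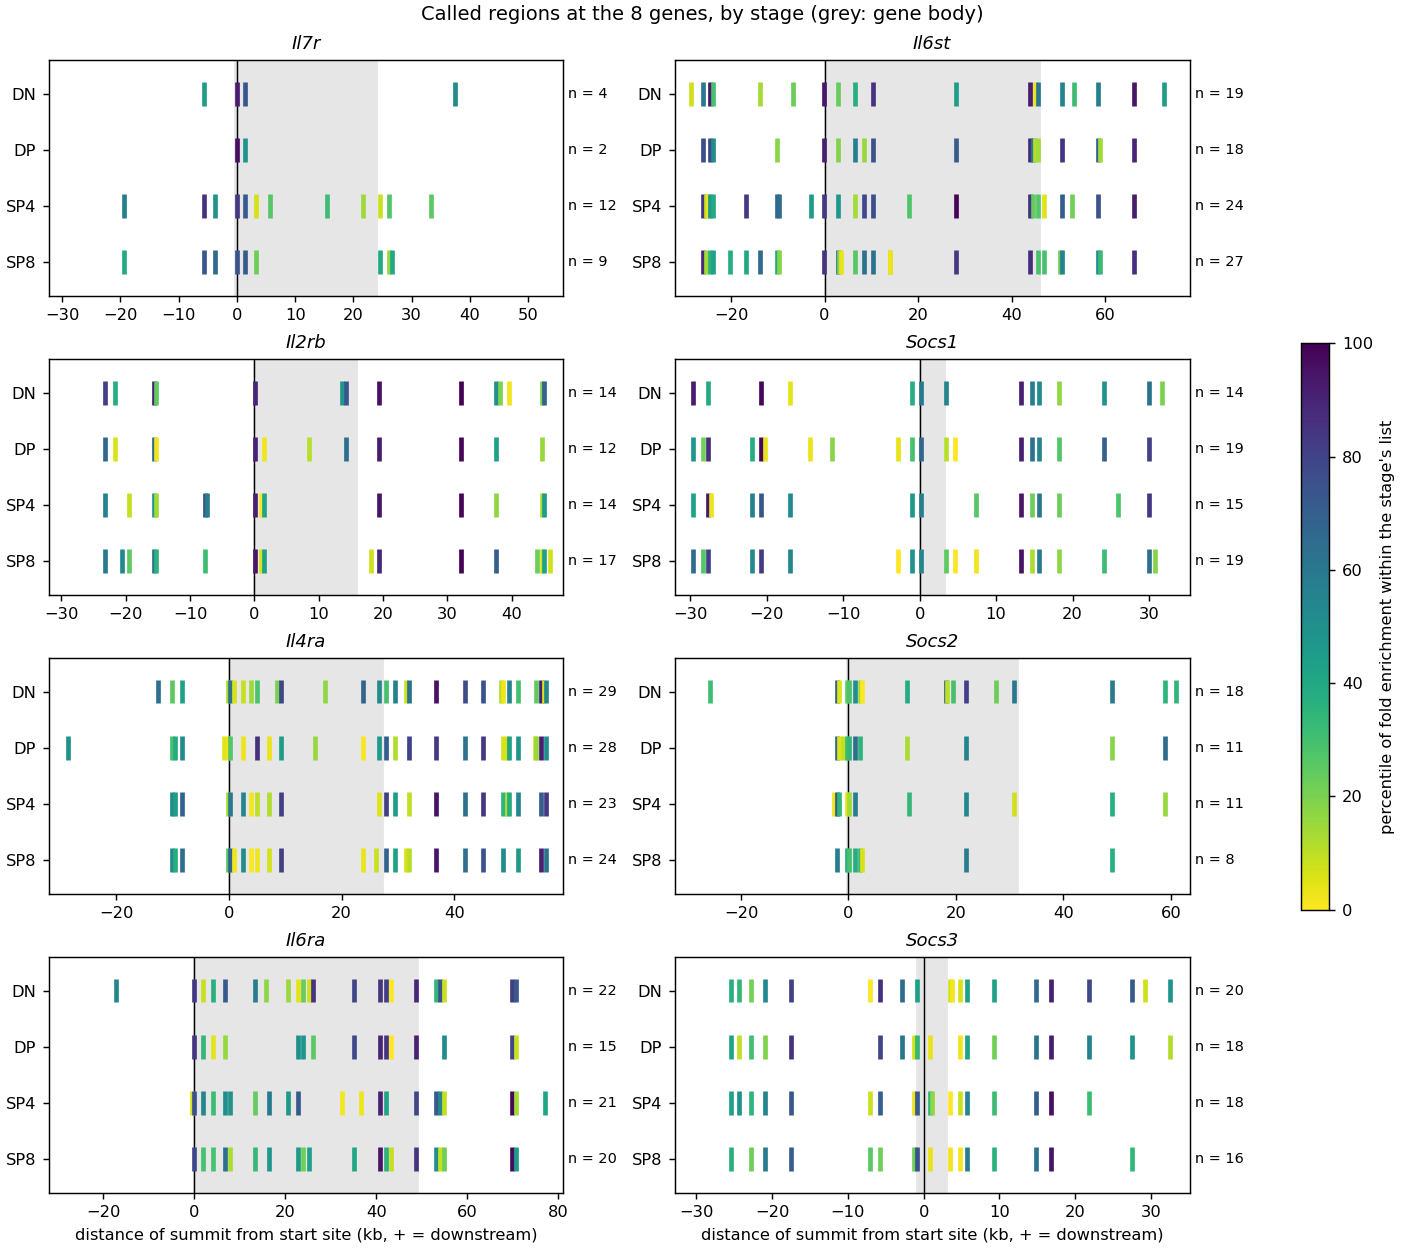
Called regions at the 8 genes, by the distance of the highest summit from the start site in kb (positive downstream, in the direction of transcription) and by stage, coloured by the percentile of fold enrichment, with the gene body in grey and the number of regions called beside each row. *Il7r* shows 4, 2, 12 and 9 regions in stage order and *Socs2* 18, 11, 11 and 8.

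*Socs1* (ENSMUSG00000038037.5, chr16:10782240-10785536, minus strand), whose product blocks JAK kinases, had more DP than DN peaks, 19 against 14, with 15 at SP4 and 19 at SP8. With full lists and 30 kb windows it was the only 1 of the 8 genes with more DP than DN peaks. This held for 9.01% of all genes, and the log2 ratio of *Socs1* was 0.42. With lists of equal length *Socs1* had 18 DP against 13 DN peaks. In that setting *Il4ra* (30 against 27), *Il6st* (19 against 14), *Socs2* (11 against 10) and *Socs3* (22 against 21) also had more DP peaks. *Il7r*, *Il2rb* and *Il6ra* had fewer. The *Socs1* start site (chr16:10784988-10786071) stood at 59.4, 67.6, 57.7 and 54.6 in stage order, highest at DP by q-value too. The region at +24.11 kb (chr16:10761314-10761714) stood at 48.1 at DN, 69.7 at DP and 31.8 at SP8, with no SP4 call. A region at -27.61 kb was lower at DN, at 39.6, than at DP (86.9), SP4 (93.6) and SP8 (80.7). Within this window 7 of the 25 regions lay within 1 kb of the start of another gene, and without them the gene had 12 DN and 13 DP peaks, a log2 ratio of 0.11, and 12 SP4 peaks, as many as at DN. The window also holds *Prm1*, *Prm2*, *Prm3* and *Tnp2*, which encode proteins of sperm chromatin, and a region near the *Prm1* start at -20.79 kb stood at 98.1 in DN, 97.8 in DP, 73.2 in SP4 and 82.5 in SP8.

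*Socs2* (ENSMUSG00000020027.18, chr10:95385362-95417180, minus strand), a suppressor best known from growth hormone signalling, had the most peaks at DN, with 22 DN, 11 DP, 12 SP4 and 9 SP8 peaks in 21 regions. The log2 ratio of SP8 over DN was -1.20, and 11.0% of genes lay at or below it. Of its regions 6 were called at DN alone (28.6%, against 21.7% of all regions) and 8 at DN or DP with no SP call (38.1%, against 32.5%), so both shares were near those of all regions. The intronic region at +18.07 kb (chr10:95398678-95398882) stood at 68.4 at DN and was called at no other stage. The start site (chr10:95416592-95416867) stood at 28.2, 34.7, 13.8 and 29.4 in stage order, the lowest of the 8 genes at DN, SP4 and SP8, and the intronic region at +21.88 kb the highest of this gene at DN, at 80.9. With every list shortened to the same length by q-value, the DN count of *Socs2* was 10, so its excess of DN peaks was not seen in that setting.

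*Socs3* (ENSMUSG00000053113.3, chr11:117966079-117970047, minus strand), whose product binds gp130 and thereby limits interleukin-6 signalling, had 25 DN, 22 DP, 22 SP4 and 17 SP8 peaks in 23 regions. Its start site (chr11:117968877-117970192) stood at 43.3 in DN, 34.0 in DP, 71.7 in SP4 and 75.4 in SP8, so both SP stages were above DN and DP, by q-value as well. Some other regions of the window ran the other way, while 3 of those nearest the start site, at -1.33, +0.87 and +1.09 kb, were not called at DN. At +21.89 kb (chr11:117947191-117947392) the percentile was 77.8 at DN, 56.6 at DP and 31.5 at SP4, with no SP8 call. At -5.76 kb it was 86.1, 79.4, 69.6 and 22.2 in stage order, and at -2.83 kb the region was called at DN (65.3) and DP (60.6) alone. In the window 1 region, at -17.56 kb, covers the start of the neighbouring gene *Pgs1*.

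The start-site regions of all 8 genes were called at all 4 stages, as were those of 58% of the 18439 protein-coding genes with a peak. *Il2rb*, *Il6ra* and *Il6st* stood at a percentile of 74.7 or higher at every stage, whereas *Socs2* stood at 34.7 or lower. By fold enrichment the highest stage was DP for *Il7r*, *Il6ra*, *Socs1* and *Socs2*, SP8 for *Il2rb*, *Il4ra* and *Socs3*, and DN for *Il6st*. Ranked by q-value the highest stage was the same for 6 of the 8, and moved to SP4 for *Il7r* and to DN for *Il6ra*.

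**Figure D3:**
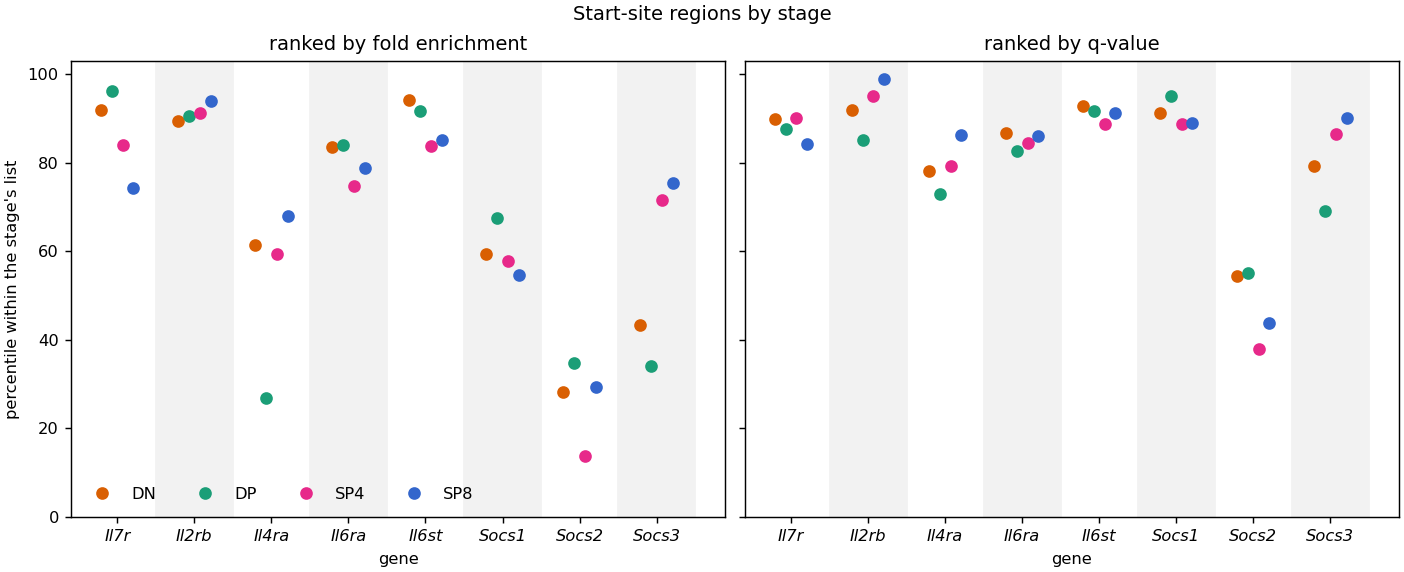
Percentile within each stage's list of the region over each start site, by fold enrichment on the left and by q-value on the right, with 1 point for each stage. *Socs3* lies higher at SP4 and SP8 (71.7 and 75.4) than at DN and DP (43.3 and 34.0) on the left, and *Il7r* is highest at DP on the left (96.2) but not on the right (87.6).

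Taken over the 209 regions, 140 (67.0%, 95% Wilson interval 60.4 to 73.0) were called in DN, 123 (58.9%) in DP, 138 (66.0%) in SP4 and 140 (67.0%) in SP8, while the shares of all 185978 regions were 75.7%, 53.9%, 58.3% and 53%. The intervals cover counting error only. Over the 209 regions the share called at DN was thus lower, and that at SP8 higher, than over all regions. By rule the 209 regions lie in or within 30 kb of a gene, whereas all regions are not limited in this way. The part of this in the differences was not tested. By gene the DN share was below 75.7% at *Il7r* (28.6%), *Il6st* (51.4%), *Socs1* (56.0%) and *Il2rb* (58.3%). It was above 75.7% at *Il4ra* (78.4%), *Il6ra* (78.6%), *Socs2* (85.7%) and *Socs3* (87.0%). The SP8 share was above 53% at every gene but *Socs2* (38.1%). At all 4 stages 78 regions were called (37.3%, interval 31.0 to 44.1), close to the 34.1% of all regions. Regions called at SP4 or SP8 and at neither DN nor DP numbered 46 (22.0%, interval 16.9 to 28.1), against 15.4%. Of these, *Il7r* held 10 and *Il6st* 14. By gene the share was above 15.4% at *Il7r* (71.4%), *Il6st* (37.8%), *Il2rb* (33.3%) and *Il6ra* (21.4%) and near it at *Socs1* (16.0%). It was below at *Il4ra* (2.70%), *Socs2* (9.52%) and *Socs3* (4.35%). Regions called at DN or DP and at neither SP stage numbered 41 (19.6%), against 32.5%.

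Of the regions at the 8 genes 40 were called at DN and not at DP (19.1%, against 30.7% of all regions) and 23 at DP and not at DN (11.0%, against 8.86%). Regions without a DP peak were called at SP4 in 44 cases (21.1%, against 18.1%) and at SP8 in 42 (20.1%, against 14.2%), and 24 of them at both SP stages (11.5%, against 7.87%). SP8 held 30 regions that SP4 did not (14.4%, against 9.24%) and SP4 28 that SP8 did not (13.4%, against 14.6%). When each list was cut to the same number of peaks, 73.3% of the regions at the 8 genes were called at SP8 and 58.1% at DN, against 63.1% and 63.3% of all regions. The higher share at SP8 was thus also seen with lists of equal length (Wilson interval 66.6 to 79.1). At DN the share was again lower, and its interval, 51.0 to 64.9, covered the share of all regions. These intervals treat regions as independent, which the regions of a gene are not, so they do not decide either difference.

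Summed over their genes, the receptor and suppressor regions differed in the share called at each stage, but not every gene followed its group. Of 140 receptor regions 62.9% were called in DN, 53.6% in DP, 67.1% in SP4 and 69.3% in SP8. Of 69 *Socs* regions the shares were 75.4%, 69.6%, 63.8% and 62.3%. More regions were called at SP8 than at DN at *Il7r*, *Il2rb* and *Il6st*, and fewer at *Socs2* and *Socs3*. *Il4ra* (78.4% at DN, 64.9% at SP8), *Il6ra* (78.6%, 71.4%) and *Socs1* (56.0%, 76.0%) ran against their group. Called at SP4 or SP8 alone were 39 of the receptor regions and 7 of the *Socs* regions, and 10 and 14 of the 39 belonged to *Il7r* and *Il6st*. The difference between the groups was not tested, since the regions of a gene are not replicates.

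**Figure D4:**
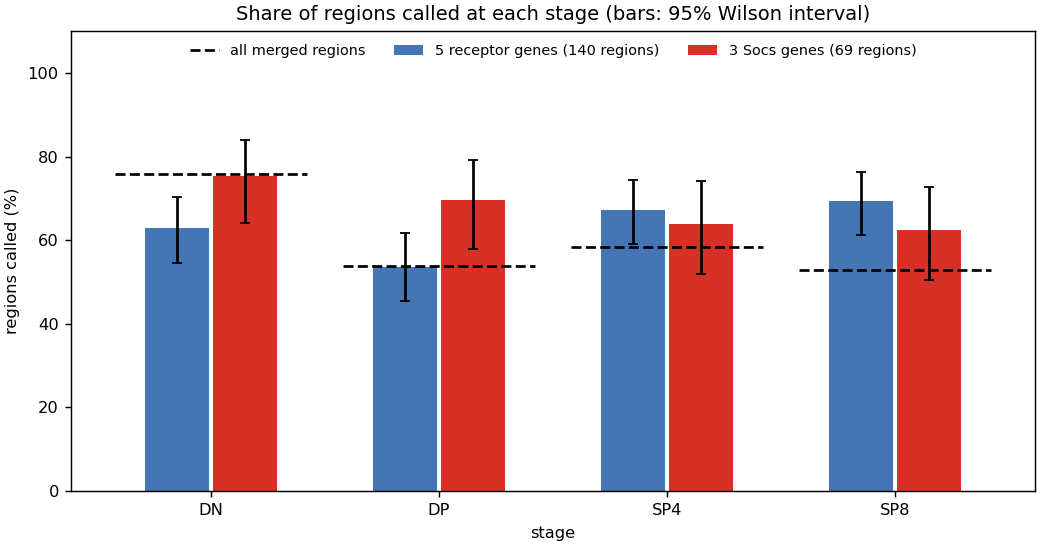
Share of regions called at each stage for the 5 receptor genes (140 regions) and the 3 *Socs* genes (69 regions), with 95% Wilson intervals as error bars and the share of all merged regions as a dashed line. Receptor shares lie above the line at SP4 and SP8 and below it at DN, and the *Socs* shares run from 75.4% at DN to 62.3% at SP8.

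More SP4 than DP peaks were found at 5 of the 8 genes (43.8% of all genes) and more SP8 than DP peaks at 4 (35.4%). More SP4 than DN peaks were found at 3, *Il7r*, *Il6st* and *Socs1*, against 14.8% of all genes, and fewer DP than DN peaks at 5, against 81%. At *Socs1* the counts were close, with 15 SP4 against 14 DN peaks (14 against 13 with equal lists). They were 3 and 3 in windows of 10 kb, and 57 against 60 in windows of 100 kb. The medians of the log2 ratios over the 8 genes were -0.24 for DP over DN, 0.16 for SP4 over DP and 0.23 for SP8 over DP, beside -0.42, 0.00 and 0.00 over all genes. For 52 further genes of the pathway (other cytokine receptors, JAK and STAT genes, further inhibitors and known regulators or targets) the medians were -0.26, 0.08 and 0.00, with more SP4 than DP peaks at 28 of them (43.8% of all genes) and fewer at 17 (34.4%). Among these *Il18r1* had 11 DN, 7 DP, 13 SP4 and 14 SP8 peaks. *Bcl2*, a survival gene downstream of the interleukin-7 receptor, had 45, 30, 54 and 49 in stage order. *Lifr*, whose product pairs with gp130, ran the other way, with 20 DN, 11 DP, 9 SP4 and 7 SP8 peaks.

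**Figure D5:**
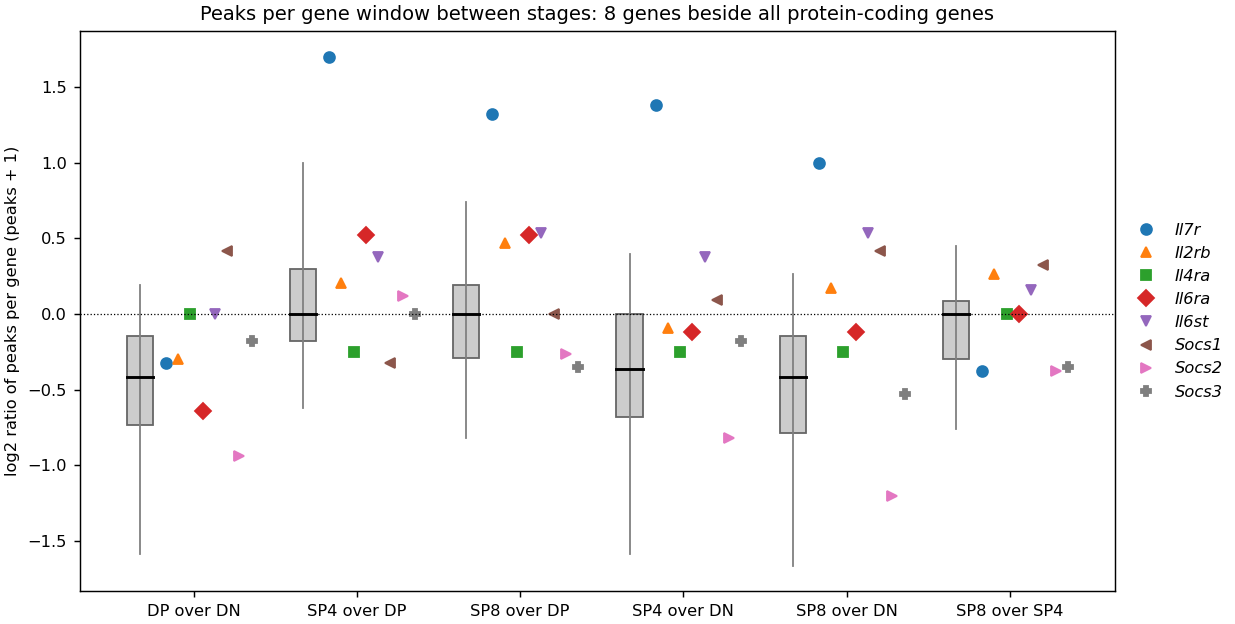
Log2 ratio of peaks per gene window (with 1 added) between stages for the 8 genes, beside the distribution over all 18439 protein-coding genes with a peak, with the median as a black line, the middle range from 25% to 75% of genes as a box and 5% to 95% as a whisker. *Il7r* lies above the upper whisker for both SP stages over DP and over DN, *Socs1* for DP over DN and SP8 over DN, and *Il6st* for SP8 over DN.

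At the start sites of the 52 genes 40 (76.9%, against 58% of all genes) were called at all 4 stages. At none were 7 (6433 of all 18439 genes), among them *Stat4*, *Stat5a* and *Il21r*. Only the start of the most upstream CCDS transcript was counted, so other starts of these genes may have been called. The windows of *Stat4* and *Stat5a* held 18 to 23 and 21 to 24 peaks at each stage. The start site of *Stat5b*, which acts downstream of the interleukin-7 receptor, was called at every stage at 14.6 to 42.4. Those of *Jak1* and *Jak3*, the kinases of that receptor, were called at 71.8 to 88.5. *Il2ra* and *Il15ra*, the alpha chains that join the *Il2rb* product, were called at 80.3 to 93.4. *Cish*, a further member of the suppressor family, was called at DN, SP4 and SP8 and not at DP.

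The width of a region is that of its merged peaks and its height that of its highest stage, so both can only grow with the number of stages called. The 64 regions of the 8 genes called at only 1 stage had a median width of 132 bp and a median percentile of 18.8, and the 78 called at all 4 stages a median width of 446 bp and, at their highest stage, a median percentile of 74.0. Over all regions the widths were 141 and 465 bp and the percentiles 25.0 and 80.9. Of the 209 regions 100 lay between genes, 65 in introns, 30 over exons and 14 over a start site, and for 67 the nearest start site belonged to another gene.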

How the data were processed

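ATAC libraries were made from 4 mice at each of the 4 stages. According to the study's methods, reads were trimmed, aligned to mm10 with BWA, stripped of duplicates with Picard, limited to properly paired, uniquely mapped alignments of high quality and down-sampled to the median library depth. Reads of a stage were then pooled, and MACS2 called narrow peaks at 5% FDR, with integration sites extended about the cut. The deposited lists give intervals and summits, and the authors also deposited for each peak a caller score, a fold enrichment (a ratio over the local background) and a −log10 q-value, all as MACS2 wrote them. A −log10 p-value is also given and was not used. Pooling removes the spread between mice, and fold enrichment depends on the background around a peak. Down-sampling brings the stages to a similar depth, but the lists still differ in length and in their range of fold enrichment.

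Here lists were read with pandas 2.3.3 in Python 3.11.15, peaks sharing at least 1 bp were merged, and percentiles of fold enrichment were taken within each list. Members were peaks whole within a gene of GENCODE M21 or 30 kb of it. A start site was that of the most upstream CCDS transcript. Genes used as background were the 18439 protein-coding genes of chromosomes 1 to 19 with a peak, and log2 ratios used counts with 1 added. Wilson intervals came from scipy 1.17.1. Sequences were read from GRCm38.p6 and promoters from RefSeq. Described in full were the region over each start site, the region of each gene with the largest difference in percentile between stages (not called taken as 0), the first 3 such regions of *Il7r* and the regions within 5 kb upstream of *Il7r*. Other regions named were chosen after their values were seen. The genes, lists and motifs were chosen with earlier results of these data known. Alternatives were windows of 10 and 100 kb, any overlap with the window, stricter q-values, lists of equal length, summits within 100 bp, regions near other start sites left out, ranking by q-value, and motif scans of 100 and 400 bp. The steps were tested on simulated lists. Per-mouse reads and footprints were not analysed here.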

Additional observations from a re-analysis of the deposited data

How the results depend on the processing

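No paired analysis was possible because the lists pool the 4 mice of a stage and carry no mouse numbers, and no result comes from a test. Peaks under the threshold, differences between mice and depth per peak cannot be seen in these lists. Of 160 alternative values for the shares of regions, 152 stayed within the Wilson interval of the reported share. With lists of equal length (191 regions), the share called at DN was 58.1% (63.3% of all regions) and at SP8 73.3% (63.1%). Under the same setting, regions called at DN and not at DP made up 11.5% (17.1% of all regions in that setting), at DN and not at SP4 15.7% (19.9%), at SP8 and not at DN 26.2% (19.1%), at DN and not at SP8 11.0% (19.4%), and at DN or DP and at neither SP stage 14.1% (23.8%). With summits within 100 bp, 30.6% were called at all 4 stages. The sums of peaks followed the window, with 90 DN, 77 DP, 93 SP4 and 92 SP8 peaks at 10 kb and 381, 330, 349 and 351 at 100 kb. At *Il7r* SP4 and SP8 held more peaks than DN and DP under every alternative run (3, 3, 11 and 8 in stage order at 10 kb, 21, 11, 35 and 29 at 100 kb, and 4, 3, 11 and 9 with equal lists). Ranking by q-value moved 31 of 32 percentiles of the start-site regions. Of 36 motif counts with other scan widths, 10 moved by over 1.5 times.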
